A study of Mus musculus with 6 samples.

Results

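The vascular endothelial growth factor (VEGF) and angiopoietin ligands and their receptors were followed through single-nucleus RNA sequencing (snRNA-seq) of subcutaneous mouse lung tumors. The 10 genes were chosen by symbol, as the ligands Vegfa, Vegfb, Vegfc, Pgf, Angpt1 and Angpt2 and the receptors Flt1, Kdr, Flt4 and Tek, and all 10 were among the 22623 genes counted in each of the 6 libraries. The tumors grew from TC1 cells, a transformed mouse lung epithelial line, implanted under the skin of MCT2loxP/loxP;Cre+ mice on a C57BL/6 background, so that both groups carried the floxed alleles of Slc16a7, the gene of the pyruvate transporter MCT2, together with the mCre-Tg transgene. At 8 weeks of age, KO mice received tamoxifen on 5 days and CO mice received vehicle, the cells were implanted 2 days later, and tumors were taken after 24 days. There were 3 CO and 3 KO libraries. Tamoxifen itself and the deletion it induces cannot be told apart, since no tamoxifen-treated mice without Cre were included. The methods describe no floxed allele in the implanted cells, so by this design only host cells could carry the deletion, and the promoter that drives Cre is not given in the sources used here. The labels do not tie the libraries to animals, and the p-values below measure the spread between libraries.

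VEGF ligands act through tyrosine kinase receptors that are best known from blood and lymphatic vessels. Vegfa is the main driver of vessel growth and signals through Kdr, while Flt1 binds Vegfa, Vegfb and Pgf with high affinity and its soluble form acts as a decoy. Vegfc is the ligand of Flt4, which is prominent in lymphatic vessels and in sprouting blood vessels. Angpt1, made by perivascular and mesenchymal cells, activates the endothelial receptor Tek and stabilises vessels, and Angpt2, made largely by endothelium, modulates Tek in a context-dependent way. In many tumors the tumor cells and the macrophages are the sources of VEGF ligands, and the endothelium carries the receptors.

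In the GENCODE annotation of GRCm38, Vegfa lies on chromosome 17 (46016993 to 46032369, minus strand), Kdr on chromosome 5 (75932827 to 75978458, minus strand), and Flt1 on the same chromosome (147561604 to 147726011, minus strand). Tek lies on chromosome 4 (94739289 to 94874976, plus strand), Flt4 on chromosome 11 (49609263 to 49652739, plus strand), and Angpt1 on chromosome 15 (42424723 to 42676977, minus strand). Angpt2, on chromosome 8 (18690263 to 18741562, minus strand), is the only one of the 10 that overlaps another counted gene, Mcph1, which is transcribed from the opposite strand. A UMI, a molecule counted once by its barcode, was assigned to a gene as a whole, so membrane and soluble forms of Flt1 share one value. In nuclei much of the RNA is unspliced and a long gene yields more UMIs, so levels are compared here only for the same gene between cells, never between genes.

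The start-site regions of Flt1 and Kdr are shown because these paralogous VEGF receptors, both highest in endothelial-like nuclei, differed in their levels elsewhere in the tumors. Each is the RefSeq promoter window of 250 bases before to 50 bases after the transcription start in GRCm38.p6, at chr5:147725962-147726261 for Flt1 and chr5:75978406-75978705 for Kdr, both on the minus strand. Capitals mark GGAAG, a form of the core recognised by ETS factors, on either strand (read as CTTCC where it is on the other strand).
Flt1: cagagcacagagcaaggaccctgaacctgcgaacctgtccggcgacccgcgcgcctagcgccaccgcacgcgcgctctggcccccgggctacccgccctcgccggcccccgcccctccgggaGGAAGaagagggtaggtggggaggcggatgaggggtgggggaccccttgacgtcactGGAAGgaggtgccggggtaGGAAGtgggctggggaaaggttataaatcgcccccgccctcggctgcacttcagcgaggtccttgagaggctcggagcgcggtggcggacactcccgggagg
Kdr: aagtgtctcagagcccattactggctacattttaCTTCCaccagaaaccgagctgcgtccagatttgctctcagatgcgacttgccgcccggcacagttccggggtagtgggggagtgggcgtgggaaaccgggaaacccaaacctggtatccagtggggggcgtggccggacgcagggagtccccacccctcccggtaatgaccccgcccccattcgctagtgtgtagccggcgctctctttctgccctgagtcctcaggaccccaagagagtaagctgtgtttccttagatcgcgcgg
The Flt1 window held 3 such matches and the Kdr window 1, against at least 1 match in 71.4% of the 32851 promoter windows. The palindrome TGACGTCA, the cyclic AMP response element, was found in the Flt1 window and not in the Kdr window, and in 1.79% of all windows. ACGTG, a form of the core that hypoxia-inducible factors recognise, shares the letters ACGT with TGACGTCA. It was in neither window, and in 19.6% of all windows on either strand. All motifs were searched on both strands. Other forms of the ETS and hypoxia cores, such as GCGTG for the latter, were not searched, so the counts hold only for the letters given. These are matches of letters in a short window and describe nothing about binding. RefSeq promoter windows were matched for 8 of the 10 genes.

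After filtering, 17514 nuclei of 18865 barcodes were kept, 1763 to 4587 per library, and the deposited counts summed to 13252572 to 22057084 UMIs per library. Unsupervised clustering, in which the 10 genes were not used, gave 23 clusters, and 17 of these could be named from marker genes. Mesenchymal-like nuclei, named from 13 markers such as Hmga2, Igf2bp1 and Msln and taken here to hold the implanted tumor cells, numbered 7856 and held 65.4% of all UMIs, and 5691 macrophage-like nuclei held 9.08%. A further 1730 nuclei formed an unnamed cluster led by Dkk2, Gpc6 and Nova1 with 10 of the 13 mesenchymal markers. Each pair of libraries shared 19 to 25 cell barcodes. The labels give the tissue as lung, but the tumors were subcutaneous, and of 8 markers of lung epithelium 4 (Sftpc, Sftpa1, Sftpd and Scgb1a1) had 0 UMIs, while Sftpb had 9, Foxj1 30, Ager 141 and Rtkn2 707. Slc16a7, the targeted gene, was not lower in the KO libraries: in macrophage-like nuclei, where most of its UMIs lay, it stood at 99.1, 99.5 and 169 CPM, UMIs of the gene per 1000000 UMIs of the sum, in CO and at 123, 151 and 158 CPM in KO. These counts, from 3′ chemistry, were assigned to the gene as a whole. The deleted part was not separated, so they do not show whether it was lost. KO replicate 1 stood apart from the other KO libraries: leaving it out raised the calls in the mesenchymal-like sum from 0 to 2358 genes, and calls that rest on it are given with and without it.

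Endothelial-like nuclei were 199 in number, in a cluster led by Ldb2, Cdh13 and Cyyr1. All 16 endothelial markers, among them Pecam1, Cdh5, Emcn and Erg, had their highest level in this class, with Pecam1 at 549 CPM and Cdh5, the gene of VE-cadherin, at 259 CPM. The class was found in every library, with 12, 23 and 29 nuclei in CO and 21, 37 and 77 nuclei in KO, which were 0.945% ± 0.636 and 1.56% ± 0.976 of all nuclei (SD, n = 3 libraries). The groups overlapped, and the difference of 0.614 percentage points gave p = 0.4 in an exact two-sided permutation test, where 3 against 3 libraries allow no p under 0.1. When nuclei were instead called endothelial by at least 3 UMIs over at least 2 markers, 547 nuclei passed, of which 155 were in the endothelial-like cluster and 271 were mesenchymal-like, and the difference turned to −1.38 percentage points (p = 0.3, exact permutation test). These 547 nuclei had a median of 11426 UMIs, 236 of them held exactly 3 marker UMIs, and the cluster is used below. Markers of tumor nuclei were also counted in the class: the 13 mesenchymal markers stood at a median of 65.4% of their level in mesenchymal-like nuclei, and none was at 0. Lymphatic markers summed to 239 CPM in endothelial-like and to 155 CPM in mesenchymal-like nuclei, and pericyte markers to 179 and 60.5 CPM.

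**Figure D1:**
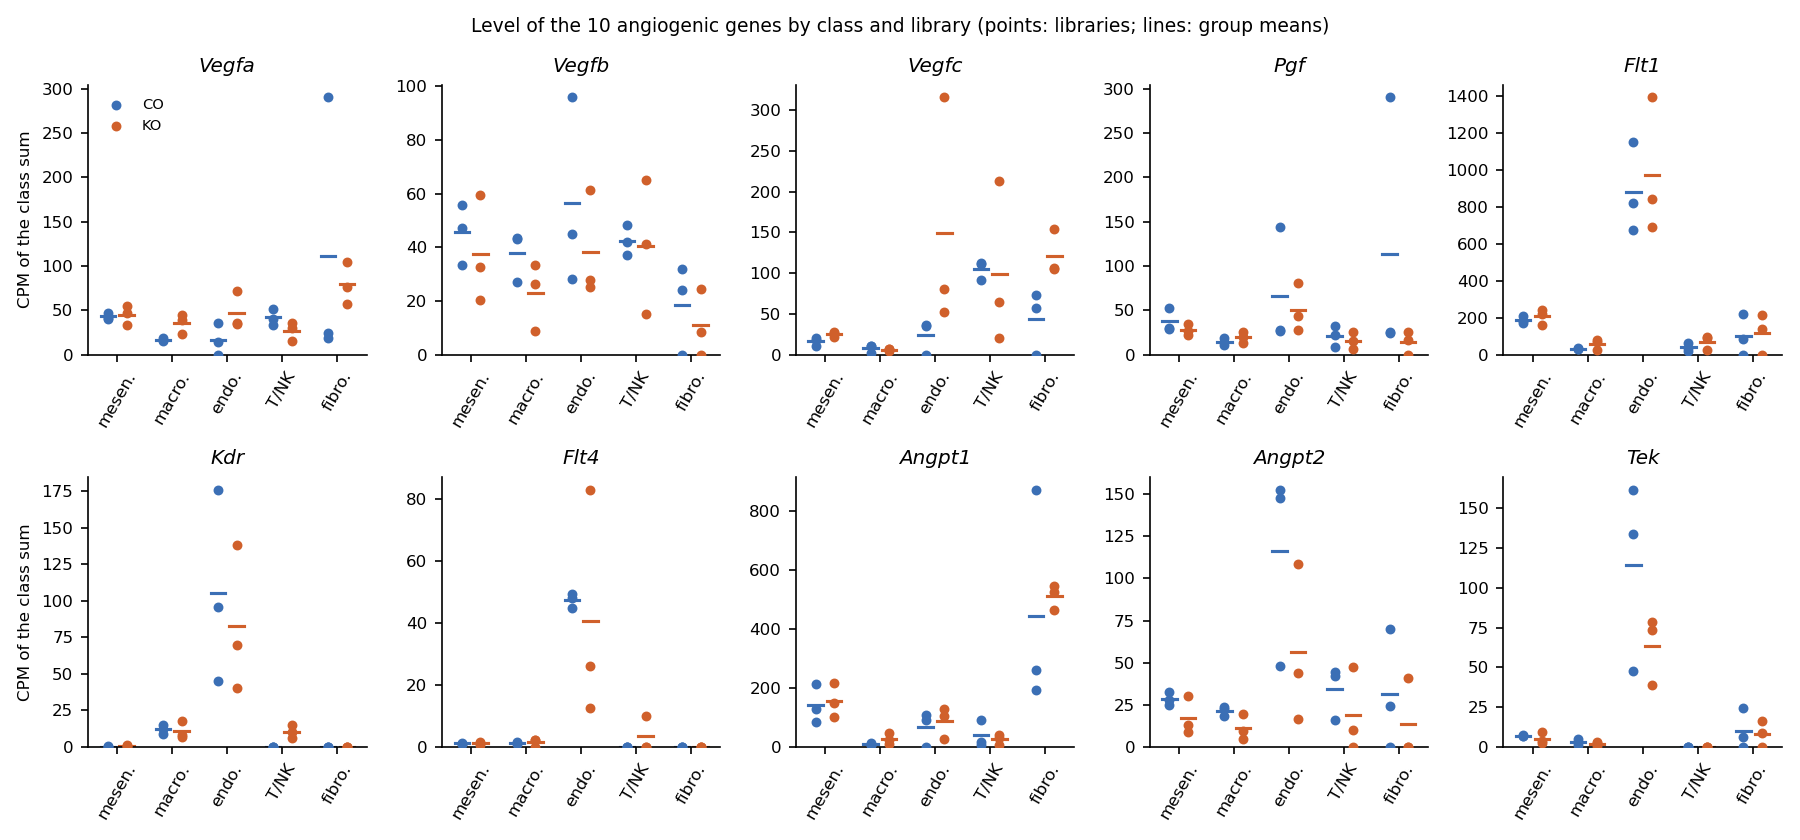
Level of each of the 10 genes in the summed nuclei of 5 classes, as CPM of that class sum (linear axes from 0, one scale per gene). Points are libraries, lines are group means, CO is blue and KO is orange. The receptors Flt1, Kdr, Flt4 and Tek have their highest values in the endothelial-like class in every library, whereas Vegfa, Vegfb and Pgf show no class that stands apart in all libraries.

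All 4 receptors were higher in endothelial-like than in mesenchymal-like nuclei in each of the 6 libraries, and the classes are described without a test, because they were formed from the same nuclei. Flt1 stood at 927 ± 285 CPM in endothelial-like nuclei (SD, n = 6 libraries). Its libraries gave 1150, 674 and 817 CPM in CO and 1392, 842 and 688 CPM in KO, so the groups overlapped. The pooled endothelial level of Flt1 was 417% of the mesenchymal-like level. Kdr, the principal signalling receptor for Vegfa, gave 95.9, 44.9 and 176 CPM in CO and 70.0, 138 and 40.4 CPM in KO endothelial-like nuclei. Its mesenchymal-like level was 0.374 CPM, from 19 UMIs among 7856 nuclei, or 0.445% of the endothelial level. These 19 were 9.60% of the 198 UMIs of Kdr. Flt4 in endothelial-like nuclei was at 47.9, 44.9 and 49.3 CPM in CO and at 26.3, 83.1 and 12.6 CPM in KO, from only 36 UMIs in all. Tek, the angiopoietin receptor, was at 47.9, 162 and 134 CPM in CO and at 78.8, 38.8 and 73.3 CPM in KO. In CO replicate 1, whose endothelial sum held 12 nuclei, the values of Kdr, Flt4 and Tek rest on 2, 1 and 1 UMIs.

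The share of nuclei in which a receptor was detected is limited by depth. Of the 199 endothelial-like nuclei, 65.3% held a UMI of Flt1 (95% exact interval 58.3 to 71.9%), 23.6% of Kdr (17.9 to 30.1%), 20.6% of Tek (15.2 to 26.9%) and 11.1% of Flt4 (7.06 to 16.3%). In mesenchymal-like nuclei, which are deeper (median 4358.5 against 1435 UMIs), the shares were 48.2% for Flt1, 0.242% for Kdr, 3.59% for Tek and 0.598% for Flt4. After thinning each nucleus to 1000 UMIs, which left out 70 endothelial-like and 1133 mesenchymal-like nuclei, Flt1 was detected in 60.5% (51.5 to 69.0%) of endothelial-like and 16.3% (15.5 to 17.2%) of mesenchymal-like nuclei. Kdr was then at 11.6% against 0.0744%, Tek at 12.4% against 0.818%, and Flt4 at 7.75% against 0.134%. At least 1 of the receptors was seen in all but 54 of the endothelial-like nuclei, and these 54 had a median of 814.5 UMIs. All 4 were seen together in 2 nuclei, with a median of 11139.5 UMIs. Intervals cover counting error only.

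Outside the endothelium the receptors parted. Although its level was highest in endothelial-like nuclei, 68.1% of the 14800 UMIs of Flt1 lay in mesenchymal-like nuclei and 5.39% in endothelial-like nuclei, since the latter were few. Flt1 averaged 186 ± 20.3 CPM for CO and 207 ± 43.0 CPM for KO mesenchymal-like nuclei (SD, n = 3), and in the Gpm6b-led cluster it reached 238 CPM over all libraries. In macrophage-like nuclei Flt1 was at 43.0 CPM, 21.7% of the mesenchymal-like level and lower than it in 6 of 6 libraries, beside a median of 11.5% for the 13 mesenchymal markers in the same nuclei. Of the 198 UMIs of Kdr, 40.9% were in endothelial-like and 36.4% in macrophage-like nuclei. The macrophage-like level of Kdr was 10.2 CPM (Poisson interval from 72 UMIs, 7.99 to 12.9 CPM), above the mesenchymal-like level in 6 of 6 libraries and 12.2% of the endothelial-like level. Over the 16 endothelial markers the corresponding median was 1.014%, and only Egfl7 was at 0, while Pecam1, which macrophages also express, stood at 29.1%, Eng at 12.2% and Plvap at 7.23%. Among macrophage-like clusters the one led by Slfn4, Slfn1 and Gbp5 had the highest Kdr, 24.3 CPM, with UMIs in all 6 libraries. In the H2-Ab1-led one the UMIs of Kdr numbered 0, 1 and 0 in CO and 4, 2 and 6 in KO. Of the 66 macrophage-like nuclei with a Kdr UMI, 8 also held a UMI of an endothelial marker other than Pecam1 (12.1%, against 5.87% of those without Kdr), and they were deeper, at a median of 1533.5 against 1049 UMIs. The part of endothelial RNA in this was not tested.

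Tek and Flt4 were also counted in mesenchymal-like nuclei, Flt4 with 52 UMIs or 1.02 CPM. Of the 525 UMIs of Tek, 58.3% were in mesenchymal-like and 15.8% in endothelial-like nuclei, although the mesenchymal-like level, 6.02 CPM, was 6.997% of the endothelial one. The ribosomal protein-rich cluster led by Rpl39, Rps18 and Ppp1r14b had 19.9 CPM of Tek, with 23.1, 24.6 and 33.8 CPM in CO and 21.7, 8.70 and 4.01 CPM in KO, against 4.41 CPM in the cycling cluster led by Efcab11, Depdc1a and Kif18b. In the mesenchymal-like sum Tek stood at 6.51, 6.73 and 7.40 CPM in CO and at 9.50, 2.66 and 3.50 CPM in KO, so 2 KO libraries were below all of CO and KO replicate 1 was above. Of the 282 mesenchymal-like nuclei with Tek, 40.8% held an endothelial marker other than Pecam1, against 29.9% of those without, and they were deeper (median 6462 against 4307.5 UMIs). For the 47 with Flt4 the share was 34.0% against 30.2%. The part of endothelial RNA in these counts was not tested. No UMI of Tek was seen in 640 T/NK-like nuclei, which allows a share of nuclei with a UMI of up to 0.575% by an exact interval. At their median of 981.5 UMIs this does not limit the share that expresses Tek.

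**Figure D2:**
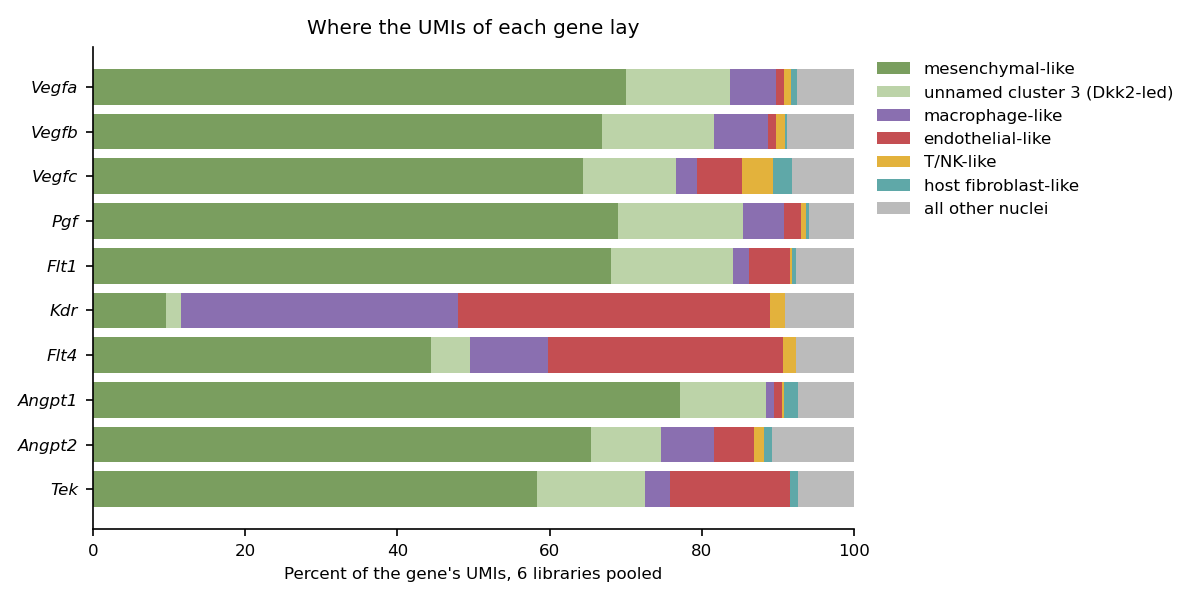
Share of each gene's UMIs, over the 6 libraries pooled, that lay in each class of nuclei (horizontal axis in percent, 0 to 100). Mesenchymal-like nuclei hold the largest share of every gene except Kdr, whose UMIs divide mainly between endothelial-like and macrophage-like nuclei.

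Among the ligands, the largest share of UMIs was in mesenchymal-like nuclei for all 6, between 64.4% (Vegfc) and 77.2% (Angpt1), close to the 65.4% of all UMIs that these nuclei hold. Their source is thus better read from levels. Vegfa was at 47.2, 40.4 and 41.6 CPM in CO and at 33.3, 46.9 and 54.7 CPM in KO mesenchymal-like nuclei. Within the class it was highest in the immediate-early cluster led by Atf3, Ppp1r15a and Hist1h2bc (77.8 CPM) and next in the cluster led by Gpm6b, Frmd5 and Pde10a (60.6 CPM). In the first of these it stood at 108, 58.9 and 113 CPM in CO and at 57.1, 55.7 and 57.8 CPM in KO. Macrophage-like nuclei had less Vegfa than mesenchymal-like nuclei in 6 of 6 libraries, with 26.9 CPM against 43.6 CPM pooled. Among macrophage-like clusters, Vegfa was at 19.3 CPM in the one led by Mrc1, Stab1 and Abcg3, at 41.3 CPM in the one led by the antigen-presentation genes H2-Ab1, Cd74 and H2-Eb1, and at 34.2 CPM in the Slfn4-led one. The H2-Ab1-led cluster also met the minimum of 3 mesenchymal markers used for naming, which the Mrc1-led and Slfn4-led ones did not. Its nuclei had a median of 769 UMIs, against 1365 in the Mrc1-led cluster. The part of tumor RNA in its Vegfa was not tested. The unnamed cluster led by Fam13a, Mageb18 and Car3, 67 nuclei with all 6 adipocyte markers and a high doublet score, had the highest Vegfa of the 23 clusters, 246 CPM, from 15 UMIs of which 5, 1 and 5 were in CO and 1, 1 and 2 in KO.

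Vegfb, a ligand of Flt1 linked to fatty acid handling, was spread widely, with 42.6 CPM in mesenchymal-like, 32.6 CPM in macrophage-like, 34.2 CPM in endothelial-like and 45.5 CPM in T/NK-like nuclei. It was highest in the mesenchymal-like cluster led by Hsp90aa1, Rpl27 and Ncl (89.4 CPM, from 56 UMIs), and dendritic-like nuclei had 77.4 CPM from 15 UMIs. That mesenchymal-like cluster was shallow, with a median of 627 UMIs and 8 of the 13 mesenchymal markers. It also met the minimum of 3 macrophage markers used for naming. The libraries of Vegfb varied within a class: KO replicate 2 had the lowest mesenchymal-like value, 20.4 CPM, against 32.6 to 59.5 CPM in the others. Pgf, which binds Flt1 but not Kdr, was highest in the cluster led by Crabp1, S100a4 and Igfbp6, at 92.6 CPM. Of those UMIs 153 came from CO replicate 1, and the other libraries had 11 to 47. In endothelial-like nuclei Pgf was at 53.9 CPM, above the mesenchymal-like level in 4 of 6 libraries, and in macrophage-like nuclei it was at 18.6 CPM, lower in 6 of 6.

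Vegfc, the lymphangiogenic ligand, had a different distribution, with its high levels in small host classes. It was at 108 CPM in endothelial-like, 97.5 CPM in host fibroblast-like and 84.8 CPM in T/NK-like nuclei, against 21.98 CPM in mesenchymal-like and 6.66 CPM in macrophage-like nuclei. The endothelial value rested largely on KO replicate 2: the UMIs numbered 0, 4 and 5 in CO and 6, 57 and 32 in KO, and 57 of these 104 UMIs came from that library. In T/NK-like nuclei the UMIs numbered 15, 14 and 11 in CO and 11, 14 and 4 in KO, so the signal was spread over all 6, and the level was above the mesenchymal-like one in 5 of them. The pooled T/NK-like level was 386% of the mesenchymal-like level, where the 13 mesenchymal markers had a median of 27.4%. Of the 52 T/NK-like nuclei with Vegfc, 5 held an endothelial marker other than Pecam1 (9.62%, against 5.10% of those without Vegfc), at a median of 1433 against 956 UMIs. The part of endothelial RNA in this was not tested. Among the tumor clusters Vegfc was highest, at 39.4 CPM, in the interferon-response cluster led by Rsad2, Ifit3b and Ifit1.

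Angpt1, the Tek agonist, differed between tumor clusters. Its level was 313 CPM in the Gpm6b, Frmd5 and Pde10a cluster, 190 CPM in the related cluster led by Gpm6b, Pde10a and Kif14, 222 CPM in the interferon-response cluster, and 76.7 CPM in the cycling cluster led by Efcab11. In the first of these the lowest library had 209.8 CPM, and in the last the highest library had 115.5 CPM, so these clusters did not overlap over libraries. Host fibroblast-like nuclei had 394 CPM from only 95 nuclei. Macrophage-like nuclei had 14.3 CPM, 10.0% of the mesenchymal-like level, below the 11.5% of the mesenchymal markers, and endothelial-like nuclei had 66.8% of it, beside 65.4% for those markers. Angpt2, its partner ligand, was by contrast highest in endothelial-like nuclei, at 93.3 CPM against 22.1 CPM in mesenchymal-like nuclei, and higher there in 6 of 6 libraries. Its UMIs in the endothelial class were 1, 17 and 21 in CO and 5, 3 and 43 in KO.

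**Figure D3:**
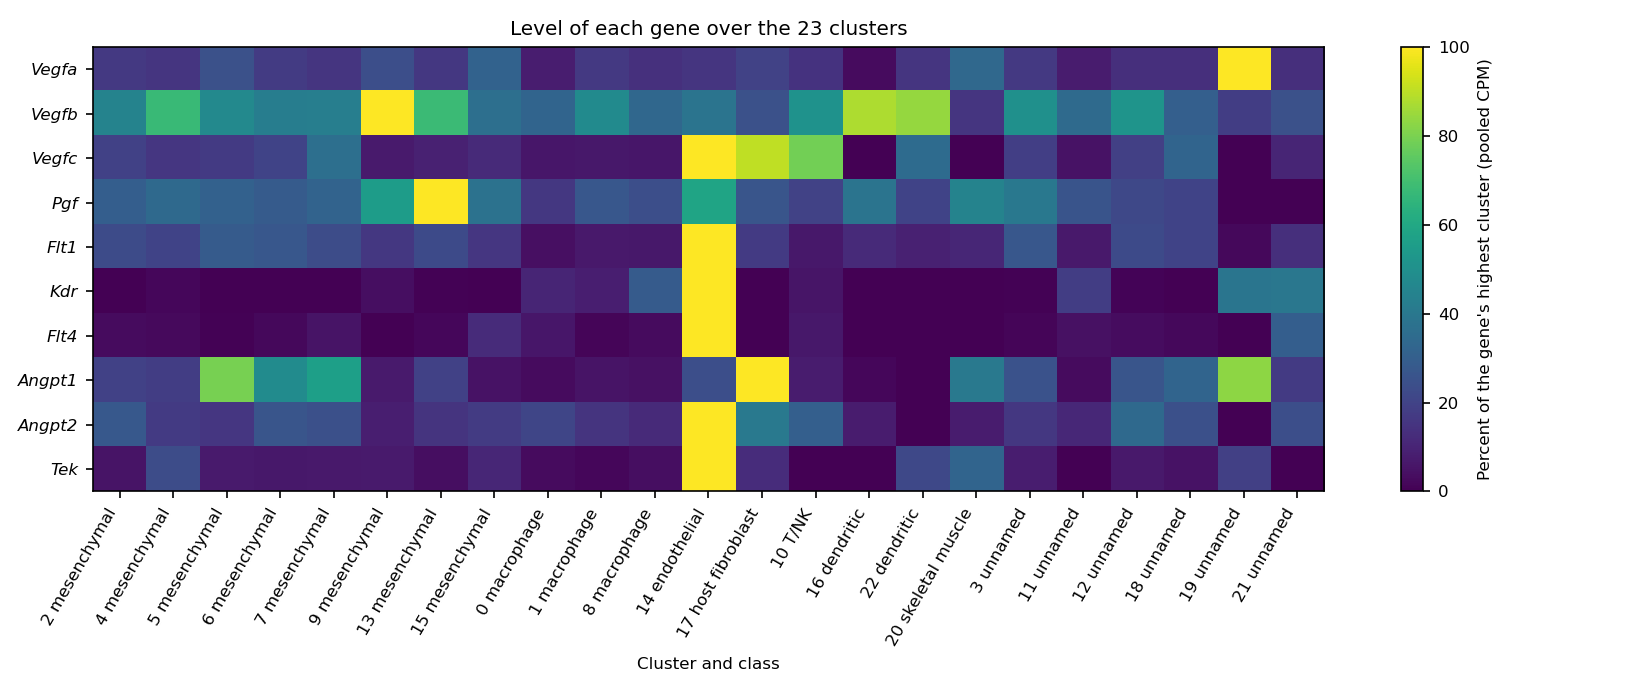
Level of each gene (rows) in the 23 clusters (columns, grouped by class), as a percentage of the gene's highest cluster, from CPM with libraries pooled. Flt1, Kdr, Flt4, Tek, Angpt2 and Vegfc peak in the endothelial-like cluster 14, Angpt1 in the host fibroblast-like cluster 17, Pgf and Vegfb in mesenchymal-like clusters, and Vegfa in the small unnamed cluster 19.

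CO and KO were compared first over all kept nuclei, by edgeR on the counts of each gene summed in a library, with a gene called at an absolute log2 fold change of at least 0.58 and a Benjamini-Hochberg adjusted p of at most 0.05. None of the 10 genes was called, and neither was any of the 13628 genes tested (0% called, and 4.61% with an unadjusted p under 0.05). DESeq2 on the same sums called 13 genes, none of them a member. Vegfc was the only member whose libraries did not overlap: it stood at 18.9, 20.9 and 13.3 CPM in CO and at 24.5, 30.1 and 21.0 CPM in KO. Its log2 fold change was 0.58 ± 0.26 (SE, adjusted p = 0.684). Such a separation with KO higher was found in 4.29% of all genes tested and with KO lower in 6.82%. Angpt2 had the largest decrease of the 10, a log2 fold change of −0.63 ± 0.42 (adjusted p = 0.684), with 27.1, 24.7 and 31.1 CPM in CO and 29.3, 7.58 and 15.2 CPM in KO. KO replicates 2 and 3 were below every CO library and KO replicate 1 was within them. The others had log2 fold changes of 0.16 (Vegfa), −0.34 (Vegfb), −0.27 (Pgf), 0.30 (Flt1), 0.12 (Kdr), 0.29 (Flt4), 0.28 (Angpt1) and −0.29 (Tek). In a sum over all nuclei, fewer nuclei of a class and less RNA in each nucleus cannot be told apart.

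In mesenchymal-like nuclei 9 members were tested, and Kdr was too low. None was called, as none of 12673 genes was (0%), with an unadjusted p under 0.05 in 6.86%, while DESeq2 called 27 genes, none a member. Vegfc stood at 18.3, 20.3 and 11.1 CPM in CO and at 25.9, 27.6 and 21.6 CPM in KO. The groups did not overlap, as in 5.54% of genes with KO higher and 7.2% with KO lower, and the log2 fold change was 0.65 ± 0.26 (edgeR, unadjusted p = 0.041, adjusted p = 0.587). Angpt2 was at 27.5, 24.8 and 32.4 CPM in CO and at 30.1, 8.71 and 13.04 CPM in KO, and the log2 fold change was −0.66 ± 0.41 (adjusted p = 0.587). The remaining log2 fold changes were 0.12 for Vegfa, −0.24 for Vegfb, −0.40 for Pgf, 0.22 for Flt1, 0.06 for Flt4, 0.21 for Angpt1 and −0.34 for Tek, each within 1.5 SE of 0. Without KO replicate 1, edgeR called 2358 genes of this sum (18.4%), Angpt2 (log2 fold change −1.30, adjusted p = 0.0305) and Tek (−1.08, adjusted p = 0.0414) among them, while leaving out any of the other 5 libraries gave 0 calls. In KO replicate 1 Angpt2 was within the CO libraries and Tek was above all of them.

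**Figure D4:**
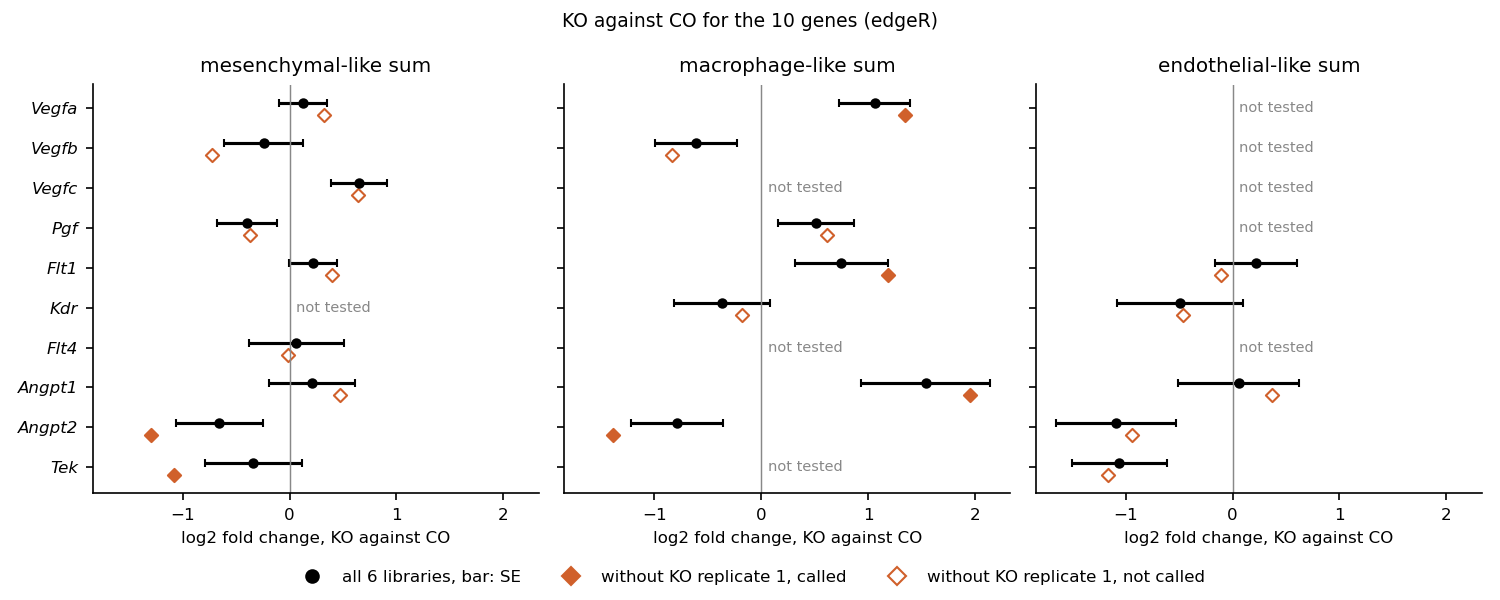
log2 fold change of KO against CO (horizontal axis) for each member in the mesenchymal-like, macrophage-like and endothelial-like sums, from edgeR. Black points are the fits of all 6 libraries with their SE, and diamonds are the fits without KO replicate 1, filled where the gene was then called. No member was called with all 6 libraries, and 2 mesenchymal-like and 4 macrophage-like members were called without that library.

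In macrophage-like nuclei Vegfa showed the clearest separation of the groups. It stood at 16.8, 18.5 and 15.5 CPM in CO and at 23.4, 39.5 and 44.8 CPM in KO, from 53 and 137 UMIs. All KO libraries were above all CO libraries, as in 5.99% of the 9899 genes tested with KO higher and 5.93% with KO lower. The log2 fold change was 1.06 ± 0.33 (edgeR, unadjusted p = 0.011, adjusted p = 0.786), so Vegfa was not called, and it stayed between 0.80 and 1.35 when any library was left out. Within the Mrc1-led cluster its mean was 11.6 ± 3.38 CPM for CO and 24.2 ± 7.14 CPM for KO, and in the Slfn4-led cluster at 14.9 ± 14.5 and 46.3 ± 13.4 CPM, without overlap in either, although the latter rests on 2, 5 and 0 UMIs in CO and 9, 2 and 13 in KO. In the H2-Ab1-led cluster, at 31.2 ± 9.39 and 57.5 ± 28.5 CPM, the groups overlapped (all SD, n = 3). The share of all genes without overlap was not counted within single clusters, so their separation is only described. These 3 clusters held 1145, 325 and 940 macrophage-like nuclei in CO and 1563, 409 and 1309 in KO.

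Markers of tumor nuclei were above every CO library in KO replicates 2 and 3, but not in KO replicate 1. The 13 mesenchymal markers summed to 1065, 794 and 1605 CPM in the macrophage-like sums of CO and to 971, 3594 and 3616 CPM in those of KO, and none was at 0. As a median over the markers, the macrophage-like level was 10.7, 8.81 and 11.5% of the mesenchymal-like level in CO and 8.61, 19.0 and 19.3% in KO. The corresponding percentages for Vegfa were 35.7, 45.8 and 37.2% in CO and 70.2, 84.3 and 81.8% in KO, above those of the markers in each library, KO replicate 1 included. Angpt1, with a macrophage-like log2 fold change of 1.54 ± 0.60 (unadjusted p = 0.031, adjusted p = 0.786), gave 8.19, 4.80 and 5.41% in CO and 9.38, 21.4 and 15.2% in KO. Flt1, with a log2 fold change of 0.75 ± 0.44 (adjusted p = 0.786), gave 16.97, 17.7 and 16.7% in CO and 14.1, 27.3 and 34.9% in KO. The part of this RNA in each difference was not tested.

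**Figure D5:**
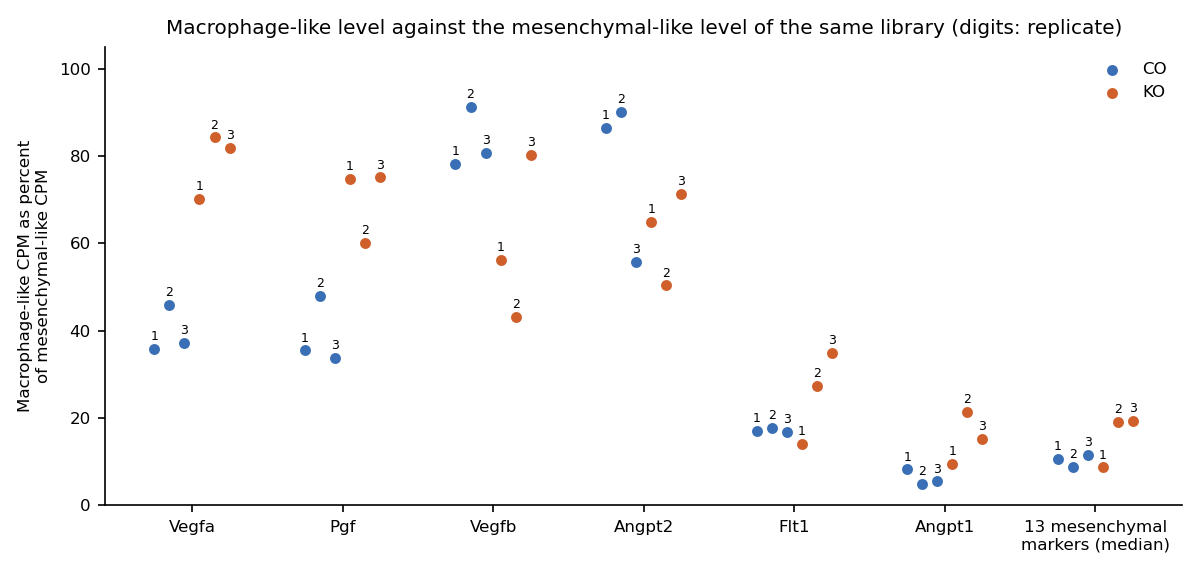
Macrophage-like level of 6 members as a percentage of the mesenchymal-like level in the same library (vertical axis), beside the median of the 13 mesenchymal markers. CO is blue, KO is orange, and digits are replicate numbers. Vegfa lies at 35.7 to 45.8% in CO and 70.2 to 84.3% in KO, with KO replicates 2 and 3 highest for Vegfa, Angpt1, Flt1 and the markers alike.

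The other macrophage-like members tested were Pgf, Vegfb, Angpt2 and Kdr, with log2 fold changes of 0.52 ± 0.36, −0.61 ± 0.38, −0.79 ± 0.43 and −0.37 ± 0.45 (adjusted p = 0.786 for the first 3 and 0.839 for Kdr). None of the 9899 genes was called (0%), an unadjusted p under 0.05 was found in 5.75%, and 6 genes were called by DESeq2, none a member. Without KO replicate 1 the count rose to 1830 genes (18.5%), with Vegfa (log2 fold change 1.35, adjusted p = 0.0057), Flt1 (1.19, 0.0040), Angpt1 (1.95, 0.0081) and Angpt2 (−1.38, 0.0284) among them. No other library left out gave a call. Angpt2 was at 23.8, 22.4 and 18.04 CPM in CO and at 19.5, 4.39 and 9.30 CPM in KO, so that, as in mesenchymal-like nuclei, KO replicates 2 and 3 were the lowest.

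An interaction term, fitted with each library as its own block, compared the KO change of the macrophage-like with that of the mesenchymal-like sums. None of 12123 genes was called (0%), and 8% had an unadjusted p under 0.05. The members with the smallest p were Vegfa, with a difference of log2 fold changes of 1.00 ± 0.25 (unadjusted p = 0.0017, adjusted p = 0.506), Angpt1 with 1.35 ± 0.37 (0.0034, 0.506) and Pgf with 0.92 ± 0.28 (0.0066, 0.525), all with the higher log2 fold change in macrophage-like nuclei. Flt1 had 0.55 ± 0.33, Vegfb −0.38 ± 0.26, Vegfc −0.59 ± 0.61, Kdr −1.64 ± 1.04, Angpt2 −0.24 ± 0.31 and Tek −0.67 ± 0.77. The ratio of the macrophage-like to the mesenchymal-like CPM did not overlap between CO and KO for the same 3 members, as for 8.91% of genes with KO higher and 5.22% with KO lower. Pgf had ratios of 35.5, 48.0 and 33.8% among CO and of 74.8, 60.1 and 75.1% among KO libraries. The median over all genes tested was 0.09 on this scale and moved to −0.01 with size factors in place of TMM. Without KO replicate 1, 277 genes (2.26%) were called, including Vegfa, Flt1 and Angpt1. Leaving out KO replicate 3 gave 3 genes, and DESeq2 gave 11, without a member in either. Of the members, DESeq2 gave only Flt1 an adjusted p in this fit (0.748), so it could call no other.

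In the endothelial-like sum 5 members reached the level for a test, and 3452 genes in all, with 0% called and 4.98% with an unadjusted p under 0.05. DESeq2 called none either, with 89 unadjusted p under 0.05 against 172 for edgeR. Tek had a log2 fold change of −1.06 ± 0.45 (unadjusted p = 0.034, adjusted p = 0.863), Angpt2 of −1.09 ± 0.56 (adjusted p = 0.863, with −2.15 without KO replicate 3 and −0.66 without KO replicate 2), Kdr of −0.50 ± 0.59 (adjusted p = 0.885), Flt1 of 0.22 ± 0.38 (adjusted p = 0.910) and Angpt1 of 0.05 ± 0.56 (adjusted p = 0.999). No member had groups without overlap among those tested, where 6.08% of genes had KO higher and 5.04% KO lower. In the 5 fits that left out a library and still tested Tek its values were between −1.19 and −0.78, while with endothelial nuclei taken by marker counts the log2 fold change was 0.48. By marker counts Kdr also turned in direction, to 0.83. Vegfc was below the level for a test. Its endothelial libraries stood at 0, 35.9 and 35.2 CPM in CO and at 52.5, 316 and 80.9 CPM in KO, without overlap, and it was called only when no low-count filter was used (22 genes called), and 57 of its 104 UMIs were from KO replicate 2. Without KO replicate 1, 34 genes were called (0.795%), none a member. In the endothelial-like sums, endothelial markers totalled 5225, 2974 and 4361 CPM among CO libraries, against 2993, 2447 and 2720 CPM among KO libraries. Totals of the 13 mesenchymal markers were 6567, 10161 and 10660 CPM for CO, against 10642, 16095.6 and 16854.5 CPM for KO. The groups overlapped for both marker lists. The part of RNA from tumor nuclei in the endothelial-like log2 fold changes was not tested.

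In addition, 5 lists of other genes of the pathway were read beside the members, and none of their genes was called by edgeR with all 6 libraries in any of the sums or in the interaction. The calls that other settings gave for the genes named here follow the lists. Among 24 co-receptors and receptor partners, the 16 tested in endothelial-like nuclei had a median log2 fold change of −0.39, against 0.03 over all genes tested there. Cdh5, Eng, Tie1, Ptprb and Robo4 of this list are also endothelial markers, so the list is not independent of the marker sums given above. In endothelial-like nuclei Eng, a co-receptor for BMP ligands on endothelium, had −1.21 ± 0.34 (edgeR, unadjusted p = 0.0034, adjusted p = 0.863). Nrp1, a co-receptor for Vegfa, had −0.78 ± 0.34 (0.039, 0.863). With endothelial nuclei taken by marker counts Eng was at 0.38. Outside the endothelium the smallest p in this list belonged to Cdh5 (0.97 ± 0.38) and Pdgfrb (−0.73 ± 0.33) in mesenchymal-like, Calcrl (0.60 ± 0.24) and Nrp2 (0.56 ± 0.27) in macrophage-like nuclei, Pdgfrb (−0.73 ± 0.31) and Bmpr2 (0.42 ± 0.27) over all nuclei, and Cd93 (−3.51 ± 1.14) and Nrp2 (0.99 ± 0.43) in the interaction. The value of Cd93 was −6.68 without CO replicate 3 and −2.53 without KO replicate 3. Among 24 other angiogenic ligands, 11 were tested in macrophage-like nuclei with a median of 0.53 against −0.003 over all genes, led by Efnb2 (1.69 ± 0.60), the ligand of Ephb4, and Pdgfc (0.68 ± 0.28). Pdgfd, a ligand of the PDGF receptor beta, had 1.46 ± 0.33 in mesenchymal-like nuclei (unadjusted p = 0.0027, adjusted p = 0.587, and called by DESeq2 with adjusted p = 0.0488), and 1.86 ± 0.55 over all nuclei. Pdgfa was at −0.65 ± 0.29 and −0.65 ± 0.26 in the same sums. In endothelial-like nuclei the leading ligands were Efnb2 (1.00 ± 0.34) and Pdgfb (−1.58 ± 0.62), and in the interaction Hgf (1.31 ± 0.45) and Efnb2 (1.29 ± 0.48).

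Of 18 endothelial response genes, 9 were tested in endothelial-like nuclei, with a median of −0.54. Erg, Plvap and Adgrl4 of this list are also endothelial markers, so the list is not independent of the marker sums given above. In endothelial-like nuclei Cd34 had −0.84 ± 0.36 and Erg −1.39 ± 0.69, the latter turning to 0.63 with nuclei taken by marker counts. Plvap, a component of endothelial diaphragms that was also counted in tumor nuclei, had −0.93 ± 0.20 in mesenchymal-like nuclei (unadjusted p = 0.0022, adjusted p = 0.587) and −0.89 ± 0.20 over all nuclei. Ets1 (0.44 ± 0.16) in mesenchymal-like nuclei, Esm1 (−0.92 ± 0.35) over all nuclei, Kitl (0.98 ± 0.48) and Cd34 (0.45 ± 0.23) in macrophage-like nuclei, and Dusp5 (1.45 ± 0.38) and Nr4a1 (0.90 ± 0.27) in the interaction completed the named genes of this list. The 16 secreted inhibitors had a median of −0.25 in mesenchymal-like nuclei, where Col18a1, the precursor of endostatin, had −0.98 ± 0.19 (unadjusted p = 0.0011, adjusted p = 0.587, and called by DESeq2 with adjusted p = 0.0135), and −0.97 ± 0.19 over all nuclei, with 0.83 ± 0.29 in the interaction. Sema3a, a ligand of Nrp1 that competes with Vegfa, had positive values in each class, with 0.72 ± 0.23 in mesenchymal-like, 1.71 ± 0.43 in macrophage-like and 1.12 ± 0.34 in endothelial-like nuclei and 0.73 ± 0.25 over all nuclei. The thrombospondins Thbs1 (0.85 ± 0.38) in macrophage-like nuclei and Thbs2 in endothelial-like nuclei (0.62 ± 0.35) and in the interaction (0.84 ± 0.29) were the other named inhibitors.

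The oxygen-sensing list bears on Vegfa, a classical target of hypoxia-inducible factors. Of its 14 genes, 12 were tested in macrophage-like nuclei with a median of 0.16, and Ero1l (0.66 ± 0.24, unadjusted p = 0.023) and Bnip3 (1.06 ± 0.39, 0.024), both hypoxia-responsive, had the smallest p (adjusted p = 0.786 for both). In mesenchymal-like nuclei all 14 were tested, with a median of 0.02, Bnip3 at 0.80 ± 0.35 and Egln3 at 0.54 ± 0.38. Over all nuclei Bnip3 was at 0.86 ± 0.37 and Egln3 at 0.60 ± 0.39, in endothelial-like nuclei Egln1 at 0.77 ± 0.41 and P4ha1 at −0.40 ± 0.35, and in the interaction Ndrg1 at 0.84 ± 0.28 and Ero1l at 0.57 ± 0.23. None of these passed the adjusted threshold with all 6 libraries.

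Without KO replicate 1, when 18.4% of genes were called in mesenchymal-like, 18.5% in macrophage-like nuclei and 2.26% in the interaction, several of the genes named from these lists passed the threshold. In mesenchymal-like nuclei these were Pdgfd (log2 fold change 1.69), Bnip3 (1.05), Sema3a (0.82), Col18a1 (−0.90), Plvap (−0.97) and Pdgfrb (−1.04), with edgeR adjusted p from 0.0305 for Pdgfd to 0.0472 for Bnip3. In macrophage-like nuclei Sema3a (2.13, adjusted p = 2.9e-05), Efnb2 (2.10), Kitl (1.46), Bnip3 (1.10, adjusted p = 0.0473) and Pdgfc (0.96) were called. The mesenchymal markers summed there to 3594 and 3616 CPM in KO replicates 2 and 3, and to 1065, 794 and 1605 CPM in CO. Sema3a was also among the leading genes of the unnamed Dkk2-led cluster. The part of RNA from tumor nuclei in the macrophage-like and endothelial-like values of these lists was not tested. In the interaction Hgf (1.98, adjusted p = 0.0028), Efnb2 (1.73), Thbs2 (1.16) and Col18a1 (1.12) were called. With all 6 libraries and no low-count filter, when 0.861% of genes were called in the interaction, Cd93 (−3.67, adjusted p = 0.00018), Hgf (1.13, 0.0028) and Nrp2 (0.82, 0.0487) were among them. By DESeq2 Col18a1 was also called over all nuclei (−0.94, adjusted p = 0.0216).

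The genes whose level ran most like that of each member over the 23 clusters were named by Pearson's r of log2(CPM + 1), among genes with at least 200 UMIs and with libraries pooled. This is a description over 23 points that share libraries and depth. For Vegfa these were Clpx, Cgnl1 and Hipk3 (r = 0.85, 0.84 and 0.84), for Vegfb Tpm4, Galk1 and Tceal1 (0.89, 0.87 and 0.86), for Vegfc C1qtnf6 and Ypel1 (0.91 and 0.90), and for Pgf Hoxb8, Zfyve21 and Eif2b2 (0.96, 0.96 and 0.95). Flt1 ran most like Cdh2, Hoxb6 and Gja1 (0.90, 0.90 and 0.89), of which Cdh2 encodes N-cadherin. Angpt1 ran most like Zfp532, Mpdz and Garem1 (0.95, 0.95 and 0.93), Angpt2 most like Agbl5, Bard1 and Stil (0.93, 0.90 and 0.89), and Tek most like Gm14399, Efna1 and Fitm2 (0.85, 0.78 and 0.78). Kdr and Flt4, with 198 and 117 UMIs, were below the minimum.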

How the data were processed

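Nuclei of 6 frozen tumors were profiled with 10x 3′ chemistry, a kit that marks strand. The authors deposited whole-number UMI counts per gene and nucleus, made with Cell Ranger (3.0.2 per the labels) on GRCm38, and named Seurat 5.2.1 for later steps. The methods name ambient RNA removal, but the deposited counts are whole numbers, and the tables do not show whether it was applied to them. Extra washes were given to samples that are not named.

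Nuclei with 100 to 7500 genes and at most 20% mitochondrial counts were kept (18014), and the 500 with the highest doublet scores were removed, 0.8% per 1000 barcodes in each library. Nuclei were clustered on 2000 variable genes without the 10 members (30 principal components integrated over libraries, leidenalg 0.10.2, resolution 1), and clusters were named from marker lists. The final naming checks were set after the clusters had been seen. Counts were summed per library and class, and KO was compared with CO by edgeR 4.0.16 (quasi-likelihood test, TMM, filterByExpr) in R 4.3.3, with DESeq2 1.42.0 as an alternative. The fits were tested on simulated data, where 4-fold changes of 200 genes were recovered in 91.5% of cases for all nuclei, 95.5% for mesenchymal-like, 83.5% for macrophage-like and 68% for endothelial-like sums. False calls numbered 4, 4, 6 and 6 in the same order. The simulation gave every gene the same dispersion and held no library that stood apart as KO replicate 1 did. Its recovery rates therefore do not carry over to the real fits. Kept UMIs per library ranged from 7675010 to 16277532.

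The members, marker lists, pathway lists and tests were chosen with earlier results of these data known. Named genes were the members, the 2 genes of each pathway list with the smallest p in a sum where none was called, the 3 genes nearest to each member with at least 200 UMIs, and the 3 leading genes of clusters described. One gene that this rule names is not reported here. The lung marker list was chosen after the data were seen, as was the alternative that adds 2 unnamed clusters to their classes. Other alternatives were size factors, no low-count filter, stricter nucleus filters (500 genes, 5% mitochondrial), no doublet removal, no integration, endothelial nuclei by marker counts, a replicate block and leaving out each library.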

Additional observations from a re-analysis of the deposited data

How the results depend on the processing

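Of 1180 values of 90 log2 fold changes under the alternatives, 1122 kept direction and side of the threshold, 28 turned in direction, and 30 passed the threshold where the main fit did not, 24 of these without KO replicate 1. DESeq2 called 13, 27 and 6 genes in all, mesenchymal-like and macrophage-like nuclei and 11 in the interaction, no low-count filter gave 22 in endothelial-like nuclei and 153 in the interaction, and no integration gave 1 in the interaction. With a library left out the calls ranged from 0 to 0 (all nuclei), 0 to 2358 (mesenchymal-like), 0 to 1830 (macrophage-like), 0 to 34 (endothelial-like) and 0 to 277 (interaction). The endothelial-like share difference ranged from 0.235 to 1.17 points, and was −1.38 by marker counts. As means over libraries, the mesenchymal-like shares of UMIs were 69.1, 66.4, 62.2, 67.5, 76.6, 65.8 and 67.1% for Vegfa, Vegfb, Vegfc, Pgf, Angpt1, Angpt2 and Flt1. With stricter nucleus filters they were 55.0, 50.8, 51.5, 50.3, 72.5, 49.3 and 56.2%, and the macrophage-like share of Vegfa was 18.4%. Without integration they were 82.7, 80.3, 73.9, 83.4, 88.2 and 83.4% for all but Angpt2, and with the 2 unnamed clusters added 82.4, 80.6, 73.3, 83.9, 87.2 and 82.5%. By marker counts 15.8% of Flt1 UMIs were endothelial. Log2 fold changes turned with a library left out for Pgf (−0.42 to 0.085), Kdr (−0.31 to 0.66) and Angpt1 (−0.19 to 0.62) in all nuclei, for Vegfa (−0.014 to 0.32), Vegfb (−0.73 to 0.031), Flt4 (−0.14 to 0.32) and Angpt1 (−0.16 to 0.61) in mesenchymal-like, and for Flt1 (−0.11 to 0.47), Kdr (−1.07 to 0.55) and Angpt1 (−0.21 to 0.37) in endothelial-like nuclei. Stricter filters turned Pgf (0.16) and Kdr (−0.36) in all nuclei, Angpt1 (−0.15) in mesenchymal-like nuclei and Angpt2 (0.068) in the interaction, and no integration turned Kdr (0.10) in macrophage-like nuclei. Marker counts turned Kdr (0.83), Tek (0.48), Eng (0.38), Erg (0.63), Thbs2 (−0.34) and P4ha1 (0.035) in endothelial-like nuclei. The cause was not tested. Same-numbered libraries deviated with r = 0.47, −0.26 and 0.39, and other pairs with −0.53 to 0.33. Median mitochondrial percentages lay close for libraries of the same number. Replicate 1 had 6.75% (CO) against 6.17% (KO), replicate 2 had 3.89 against 3.82%, and replicate 3 had 1.32 against 0.883%. Median UMIs per nucleus were further apart, at 3340 against 2292, 2415.5 against 4768.5, and 1903 against 1067 in the same order. With so few libraries, these values do not settle whether the numbers pair the samples. The main fits of CO against KO left the numbers out. The replicate block gave 0 calls in the 4 sums. Its unadjusted p was under 0.05 for 991, 1648, 672 and 327 genes (edgeR; all, mesenchymal-like, macrophage-like and endothelial-like), against 628, 870, 569 and 172 without the block. It was not run for the interaction, nor were stricter filters for endothelial-like nuclei, where a library kept under 10 nuclei.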
